A study of Rattus norvegicus with 21 samples.

Results

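NBTII-FGFR1 cells, the epithelial rat bladder carcinoma line NBTII transfected with fibroblast growth factor receptor 1 (FGFR1), were compared at 6 h and at 2 h of FGF1. The comparison used 4 of the 21 Affymetrix arrays of the series, chosen by their labels: 2 arrays at 6 h and 2 arrays at 2 h, each from 1 sample of total RNA. FGF1 was given at 20 ng/ml with heparin, so both groups carry the transfected receptor, the ligand and heparin and differ by 4 h of exposure. The parental NBTII line, with 2 arrays at 6 h and 2 at 2 h under the same treatment, served for comparison. Neither how many clones NBTII-FGFR1 represents nor whether replicates came from separate cultures is stated in the labels, so every p-value here is about the scatter of these samples alone. No array after 0 h lacks FGF1, so time in culture and handling cannot be told apart from the ligand, and no 0 h array entered the comparison.

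FGF1 binds FGF receptors with heparan sulfate and activates the Ras-ERK cascade, which switches on immediate-early genes, mostly transcription factors and their feedback inhibitors with short-lived transcripts. The products of these genes, among them the AP-1 proteins Fos and Jun, then act on later genes such as matrix metalloproteinases and growth factor ligands. In NBTII cells FGF1 is known for dissociating epithelial colonies into motile cells, a model of the epithelial to mesenchymal transition. The step from 2 h to 6 h lies between the early transcription factor response and the later change in cell shape.

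The deposited values are log2 signals, so a difference of 1 is a 2-fold change. Medians of the 4 arrays lay between 6.13 and 6.21. Lower quartiles were 4.46 and 4.53 at 6 h, against 4.36 and 4.37 at 2 h, so dim probe sets sat slightly higher at 6 h, and the part of this in small positive differences was not tested. Detection calls are not part of the table used. A level below an array's lower quartile is therefore not shown to be above background, and a difference from such a level is best read as a lower bound. Across probe sets the 6 h arrays correlated best with each other (r = 0.992). The library labelled 2 h replicate 1 correlated better with the NBTII array at 0.5 h (r = 0.990) than with 2 h replicate 2 (r = 0.988), whereas 2 h replicate 2 correlated best with NBTII 2 h replicate 2 (r = 0.993). With the 0.5 h array of their own line both 2 h arrays correlated alike (r = 0.987), and not better than with each other. Counts are therefore also given against 2 h replicate 2 alone, whose 3 arrays all belong to the full comparison, and the calls of named genes lost there are stated. Of the epithelial markers, 5 of 6 lay above the array median on all 4 arrays (mean level 10.05 to 10.30 at 6 h, against 10.06 to 10.29 at 2 h). Fibroblast markers averaged 4.20 to 4.22 at 6 h and 4.06 to 4.11 at 2 h, with 6 of 8 below the lower quartile throughout. The uroplakins that mark urothelium could not be checked (0 of 4 measured).

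Transcripts moved in both directions between 2 h and 6 h, and the large changes were mostly falls. Of 15866 probe sets, 2562 (16.1%) differed at an adjusted p below 0.05 in limma's moderated test, 1094 higher (6.9%) and 1468 lower (9.25%) at 6 h. Among these, 143 were higher and 356 lower by at least 1 on the log2 scale. The 6 h mean lay at least 1 beyond both 2 h arrays for 77 probe sets that rose and for 219 that fell. Against 2 h replicate 2 alone 1280 probe sets (8.07%) were called, 554 higher (3.49%) and 726 lower (4.58%), and without 6 h replicate 2 the count was 1273. With array medians made equal 1540 probe sets were higher and 1319 lower, a share of 53.9% higher in place of 42.7%, so the balance between rises and falls among small changes depends on the scaling. With genes represented by their brightest probe set, 17.1% of 10411 genes were called, 7.54% rising and 9.6% falling. Against 2 h replicate 2 alone 8.79% of genes were called, with 4.03% rising and 4.75% falling.

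Immediate-early genes fell together. Of 31 measured members 21 fell and 1 rose, against 9.6% and 7.54% of all genes, and the median difference was -1.37, against 0.08 over all genes. Against 2 h replicate 2 alone the counts were again 21 and 1 with a median of -1.09. The AP-1 subunit gene Fos measured 5.33 and 6.87 at 6 h, against 9.78 and 8.82 at 2 h, and fell by 3.20 ± 0.41 (SE, adjusted p = 0.00033), while another Fos probe set was not called. Fosb, which encodes another Fos protein, measured 4.58 and 4.98 at 6 h and 7.59 and 7.43 at 2 h, and fell by 2.73 ± 0.21 (adjusted p = 7.6e-06). Both arrays at 6 h were lower than both at 2 h for each of these genes, a condition of the naming rule for the largest falls. Jun, the usual partner of Fos, was at 8.49 and 8.16, against 10.36 and 9.41 at 2 h, a fall of 1.56 ± 0.23 (adjusted p = 0.00094). Junb and Jund fell by 1.39 and 0.92, and Atf3, a stress-responsive partner of Jun, fell by 3.06 ± 0.56 with arrays at 2 h that lay far apart, at 9.74 and 7.34.

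The EGR and NR4A factors were divided. Egr3 and Egr4 were not called (0.24 and 0.25, adjusted p = 0.20 and 0.18), Nr4a2 fell by 0.98 and the others fell by more. Egr1, a zinc finger activator induced by ERK, measured 8.06 and 9.53 at 6 h, against 11.77 and 11.05 at 2 h, and fell by 2.62 ± 0.47 (adjusted p = 0.0027). Egr2, its relative, measured 4.11 and 5.04 at 6 h and 8.20 and 6.68 at 2 h, and fell by 2.86 ± 0.43 (adjusted p = 0.0009), a lower bound as 1 of its 6 h arrays was below the lower quartile. Nr4a1, an orphan nuclear receptor, was at 5.88 and 5.77 on the 6 h arrays and at 8.99 and 9.03 on the 2 h arrays, which agreed closely, and fell by 3.18 ± 0.25 (adjusted p = 9.3e-06). Nr4a3, a related receptor, measured 4.05 and 4.06, both below the lower quartile, against 6.32 and 8.05 at 2 h. Its fall of 3.13 ± 0.44 is a lower bound, and another Nr4a3 probe set was not called. Klf4, a Kruppel-like factor, fell by 1.44 ± 0.11 (adjusted p = 7.6e-06). In Egr1, Egr2, Nr4a1, Nr4a2, Nr4a3 and Klf4 the 6 h arrays lay below the 2 h arrays without overlap, which the naming rule required of Nr4a1 and Nr4a3. The arrays of Egr3 and Egr4, which were not called, did not overlap either, so a lack of overlap adds no support to the calls.

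The list also holds genes beside the AP-1, EGR and NR4A factors. Dusp1, a phosphatase that inactivates MAP kinases, measured 6.75 and 7.89 at 6 h and 10.08 and 9.76 at 2 h, a fall of 2.60 ± 0.39 (adjusted p = 0.00094), and a further Dusp1 probe set also fell. Zfp36, which directs AU-rich transcripts to decay, was at 7.10 and 7.62, against 9.29 and 8.96 at 2 h, and fell by 1.76 ± 0.23 (adjusted p = 0.00039). Pnrc1, a nuclear receptor coactivator, measured 4.63 and 6.04 at 6 h and 9.82 and 7.60 at 2 h. It fell by 3.37 ± 0.59 (adjusted p = 0.0023), though the arrays within each group differed by more than 1 and another probe set was not called. Myc, a growth-promoting transcription factor, was the exception. It rose by 0.97 ± 0.14 (adjusted p = 0.00076), with 10.60 and 10.64 at 6 h against 9.83 and 9.46 at 2 h. Arc and Klf6 were borderline. Arc (adjusted p = 0.045) was at 6.14 and 8.27 on the 2 h arrays, differed by -0.30 without 2 h replicate 2, and lost its call when any array of the step in either line other than NBTII-FGFR1 2 h replicate 1 was left out. Klf6 (adjusted p = 0.046) differed by -0.50 without 2 h replicate 1 and lost its call there, without either NBTII-FGFR1 6 h array and without either NBTII 6 h array. Srf, the gene of serum response factor, overlapped in the full comparison and was not called (-0.45 ± 0.19, adjusted p = 0.12). Against 2 h replicate 2 alone Srf took the place of Klf6 among the falls (-0.83), so the falling genes there were not all the same.

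The promoters of immediate-early genes are shown because CArG boxes, the binding sites of serum response factor, are the textbook element of this group. Sequences are RefSeq's for the GRCr8 build, 150 bases up to the transcription start, 5′ to 3′ on the gene's strand, with CArG boxes in capitals. Egr1 is at chr18:26736928-26737077 on the plus strand, Egr2 at chr20:21054442-21054591 and Zfp36 at chr1:92799109-92799258, both on the minus strand.
Egr1: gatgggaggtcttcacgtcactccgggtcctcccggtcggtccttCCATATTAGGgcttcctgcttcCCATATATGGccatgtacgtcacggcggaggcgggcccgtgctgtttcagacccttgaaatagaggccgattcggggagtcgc
Egr2: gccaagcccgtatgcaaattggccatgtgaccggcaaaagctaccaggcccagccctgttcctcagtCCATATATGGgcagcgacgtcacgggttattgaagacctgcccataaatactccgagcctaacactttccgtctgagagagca
Zfp36: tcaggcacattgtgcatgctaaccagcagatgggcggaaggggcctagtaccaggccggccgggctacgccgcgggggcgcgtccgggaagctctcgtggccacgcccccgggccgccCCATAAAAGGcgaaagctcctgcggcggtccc
Within 250 bases upstream, searched on both strands, a CArG box was found in 5 of 19 immediate-early promoters, against 1.497% of 33469 promoters. A CRE (TGACGTCA) was found in 3 of 19, against 1.587% of all promoters. A match describes letters in this window and not a site in use.

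**Figure D1:**
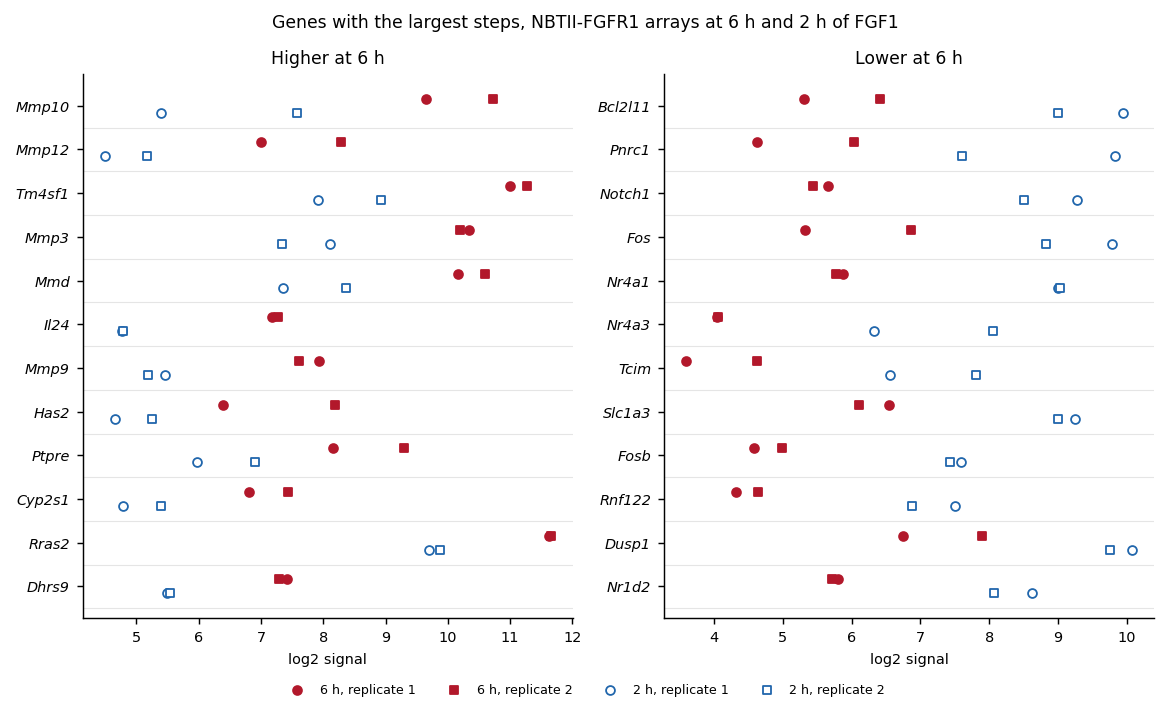
Log2 signal (x axis) on each NBTII-FGFR1 array for the 12 genes with the largest rise and the 12 with the largest fall by the naming rule. Filled red symbols are 6 h, open blue symbols 2 h, circles replicate 1 and squares replicate 2. Absence of overlap between the 6 h and 2 h arrays was a condition of the naming rule. Pnrc1, Mmp10 and Nr4a3 show the widest gaps between the 2 h arrays.

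Some matrix metalloproteinases were among the largest rises, while others, such as Mmp2 and Mmp14, were not called. Over all genes 7.54% rose and 9.6% fell. Of 28 measured genes of pericellular proteolysis 5 rose and 0 fell, and the list's median difference was 0.18, against 0.08 over all genes, so the change lay in a few members. The counts against 2 h replicate 2 alone were also 5 and 0, and 8 rose when either NBTII array at 2 h, which lends its spread, was left out. Mmp10 (stromelysin 2) measured 9.65 and 10.72 at 6 h, against 5.40 and 7.57 at 2 h, a rise of 3.70 ± 0.68 or 13-fold (adjusted p = 0.0029), and of 2.62 from 2 h replicate 2. Mmp12, an elastase, was at 6.99 and 8.28 at 6 h and at 4.49 and 5.16 at 2 h, and rose by 2.81 ± 0.32 (adjusted p = 0.00017). Mmp3 (stromelysin 1) measured 10.34 and 10.20, against 8.10 and 7.33 at 2 h, and rose by 2.56 ± 0.46 (adjusted p = 0.0025). All 3 were higher on both 6 h arrays than on either 2 h array, a condition of the naming rule for the largest rises. Mmp9 (gelatinase B) rose on both of its probe sets. The one with the larger rise was at 7.93 and 7.61 at 6 h and at 5.46 and 5.19 at 2 h, a rise of 2.44 ± 0.34 (adjusted p = 0.00058). Mmp24, a membrane-bound member, rose by 0.74 ± 0.20 (adjusted p = 0.025) but was not called against 2 h replicate 2 alone (0.55) or without 6 h replicate 2, and 2 other Mmp24 probe sets were not called.

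Other proteases and their partners were not past the threshold. Mmp13 (collagenase 3) measured 11.31 and 10.14 at 6 h and 10.10 and 8.24 at 2 h, a difference of 1.55 ± 0.53 (adjusted p = 0.062). Against 2 h replicate 2 alone it was called (2.49, adjusted p = 0.0091), so its call turned on 2 h replicate 1. Plau, the urokinase plasminogen activator, differed by 0.62 ± 0.26 (adjusted p = 0.12). Its receptor gene Plaur measured 9.52 and 10.94 at 6 h and 10.51 and 11.35 at 2 h, with overlap (-0.70 ± 0.36, adjusted p = 0.19). The inhibitor Timp1 was at 11.88 and 11.28 at 6 h and at 11.21 and 11.87 at 2 h, also with overlap.

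The promoters of 4 metalloproteinase genes are shown because AP-1 sites near the start are the known regulatory element of this family. Mmp3, Mmp10 and Mmp12 were called higher at 6 h and Mmp13 was not. The promoters of Mmp9 and Mmp24, which were called, are not shown, so the 4 do not stand for the genes that rose. All 4 lie on chromosome 8 of GRCr8 on the plus strand: Mmp3 at chr8:12925131-12925280, Mmp10 at chr8:12974557-12974706, Mmp12 at chr8:12866502-12866651 and Mmp13 at chr8:12782679-12782828. Capitals mark the AP-1 motif TGANTCA.
Mmp3: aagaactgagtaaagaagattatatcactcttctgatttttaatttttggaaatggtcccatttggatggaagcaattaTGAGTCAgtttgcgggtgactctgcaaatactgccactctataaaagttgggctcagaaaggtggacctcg
Mmp10: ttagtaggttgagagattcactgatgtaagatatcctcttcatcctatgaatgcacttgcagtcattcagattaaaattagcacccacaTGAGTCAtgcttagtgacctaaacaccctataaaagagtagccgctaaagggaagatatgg
Mmp12: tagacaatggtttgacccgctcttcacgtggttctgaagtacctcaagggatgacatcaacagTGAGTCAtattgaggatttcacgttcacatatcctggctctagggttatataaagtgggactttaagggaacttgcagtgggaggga
Mmp13: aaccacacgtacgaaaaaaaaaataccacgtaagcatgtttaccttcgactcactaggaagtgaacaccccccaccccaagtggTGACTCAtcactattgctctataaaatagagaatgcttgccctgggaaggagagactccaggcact
The motif begins 71, 61, 87 and 66 bases before the start in Mmp3, Mmp10, Mmp12 and Mmp13, in the order shown. It was found on either strand in 7 of 21 proteolysis promoters, against 6.34% of all 33469 promoters, and in 0 of 19 immediate-early promoters.

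Other genes with large rises encode matrix, membrane and signalling proteins. Tm4sf1, a tetraspanin-like membrane protein, measured 10.99 and 11.27 at 6 h, against 7.91 and 8.92 at 2 h, and rose by 2.72 ± 0.30 (adjusted p = 0.00016). Has2, the enzyme that makes hyaluronan, was at 6.38 and 8.18 at 6 h and at 4.66 and 5.25 at 2 h, a rise of 2.33 ± 0.38 (adjusted p = 0.0016) with 6 h arrays that differed by more than 1. Rras2, a small GTPase close to Ras, was at 11.63 and 11.65 at 6 h and at 9.70 and 9.88 at 2 h, and rose by 1.85 ± 0.12 (adjusted p = 7.6e-06). Mmd, a membrane protein of the PAQR family, rose by 2.53 ± 0.27 and Ptpre, a tyrosine phosphatase, by 2.29 ± 0.31. Dhrs9, a short-chain dehydrogenase that acts on retinol and steroids, measured 7.41 and 7.30 at 6 h, against 5.49 and 5.53 at 2 h, a rise of 1.84 ± 0.16 (adjusted p = 2.7e-05). Cyp2s1, a cytochrome P450, rose by 2.02 ± 0.34. All 7 of these genes were chosen for their distance from the nearer 2 h array, so a large difference from 2 h replicate 2 was given by the choice. Against 2 h replicate 2 alone their differences lay between 1.72 (Cyp2s1) and 2.21 (Tm4sf1).

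Several of the deepest falls were outside the immediate-early list. Bcl2l11, which encodes the pro-apoptotic protein Bim, measured 5.31 and 6.41 at 6 h, against 9.95 and 9.0 at 2 h, a fall of 3.62 ± 0.30 (adjusted p = 1.6e-05) on 1 probe set, and 2 other Bcl2l11 probe sets were not called. Notch1, a receptor that sets cell fate by contact between neighbours, was at 5.66 and 5.44 at 6 h and at 9.28 and 8.50 at 2 h, and fell by 3.34 ± 0.25 (adjusted p = 7.6e-06), while another Notch1 probe set also fell. Slc1a3, a glutamate and aspartate transporter, measured 6.55 and 6.11, against 9.24 and 9.01 at 2 h, a fall of 2.79 ± 0.35 (adjusted p = 0.00029), and of 2 other Slc1a3 probe sets 1 was higher and 1 lower. Thus the Slc1a3 probe sets disagreed in direction. Rnf122, a RING-finger ubiquitin ligase, fell by 2.71 ± 0.19 and Nr1d2, a circadian repressor, by 2.59 ± 0.20, and 2 further Nr1d2 probe sets fell as well. Tcim measured 3.60 and 4.62 at 6 h, against 6.55 and 7.80 at 2 h, a fall of 3.07 ± 0.33 that is a lower bound, as 1 of its 6 h arrays was below the lower quartile. The same holds for Rnf122.

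Cytokine and NF-kB target genes split, while 9.6% of all genes fell and 7.54% rose. Of 30 measured, 6 fell and 1 rose (median -0.14), and 3 fell and 1 rose against 2 h replicate 2 alone. Il24, a cytokine of the interleukin-10 family, rose by 2.45 ± 0.51 (adjusted p = 0.0063), with 7.17 and 7.27 at 6 h against 4.77 and 4.78 at 2 h. Ccl20, a chemokine for lymphocytes and dendritic cells, was at 4.92 and 4.85 at 6 h and at 7.63 and 5.90 at 2 h, and fell by 1.88 ± 0.37 (adjusted p = 0.0043). Cx3cl1, a membrane-anchored chemokine, fell by 1.18 ± 0.21 and the adhesion molecule gene Icam1 by 2.48 ± 0.48, with the Icam1 call lost without 6 h replicate 2. Cxcl1, a neutrophil chemokine, measured 6.04 and 5.81 at 6 h, against 11.27 and 7.22 at 2 h. Its fall of 3.32 ± 0.88 (adjusted p = 0.021) was lost without 2 h replicate 1, where the difference was -1.29 (adjusted p = 0.15), and without either 6 h array. The number of falling members was 12 without 2 h replicate 2, 3 without 6 h replicate 1 and 2 without 6 h replicate 2, so each array of the comparison moved it.

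Of 11 genes of the EGF receptor and its ligand family 2 rose and 0 fell, and the same held against 2 h replicate 2 alone. Over all genes 7.54% rose and 9.6% fell. Tgfa measured 8.56 on both arrays at 6 h, against 7.42 and 7.21 at 2 h, and rose by 1.25 ± 0.12 (adjusted p = 5.9e-05). Nrg1, which encodes neuregulin 1, the ligand of ErbB3 and ErbB4, was at 10.22 and 10.67 at 6 h and at 8.88 and 9.32 at 2 h, a rise of 1.34 ± 0.23 (adjusted p = 0.002), and 3 of 7 other Nrg1 probe sets rose. The ligands Hbegf, Areg and Ereg overlapped between the groups, with differences of -0.37, -0.22 and -0.05. Egfr itself measured 7.15 and 6.90 at 6 h and 7.28 and 7.76 at 2 h (-0.49 ± 0.27, adjusted p = 0.23).

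Of 4 FGF receptor genes 2 fell, Fgfr1 and Fgfr2, and 0 were called against 2 h replicate 2 alone. Over all genes 9.6% fell and 7.54% rose. The species of the transfected receptor is not given in the labels, so what a rat probe set reads of it is not known. Fgfr1 measured 5.82 and 5.37 at 6 h, against 7.58 and 6.67 at 2 h, and fell by 1.53 ± 0.38 (adjusted p = 0.015). In NBTII cells it was at 3.63 and 3.58 at 6 h and at 3.89 and 3.68 at 2 h, below the lower quartile of those arrays. Fgfr2 measured 7.65 and 7.23 at 6 h and 8.88 and 8.30 at 2 h, a fall of 1.15 ± 0.30 (adjusted p = 0.021), with 1 of 4 other probe sets falling. Neither call held without 2 h replicate 1 (Fgfr1 -1.08, adjusted p = 0.14, and Fgfr2 -0.86, adjusted p = 0.16) or without 6 h replicate 2, and the other Fgfr1 probe set was not called. Fgfr3 and Fgfr4 differed by -0.09 and 0.14, and Fgfr4 was below the lower quartile on all 4 arrays. Of 10 ERK feedback genes 1 rose and 1 fell, and 1 rose and 0 fell against 2 h replicate 2 alone. Spred3, an inhibitor of Ras signalling, rose by 0.53 ± 0.12 (adjusted p = 0.0085), a call lost without 6 h replicate 1. Spry1, another inhibitor, fell by 1.15 ± 0.24 (adjusted p = 0.007), but by 0.65 with an adjusted p of 0.052 from 2 h replicate 2. The ERK phosphatase gene Dusp6 overlapped, at 12.61 and 12.54 at 6 h and 12.62 and 12.48 at 2 h.

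**Figure D2:**
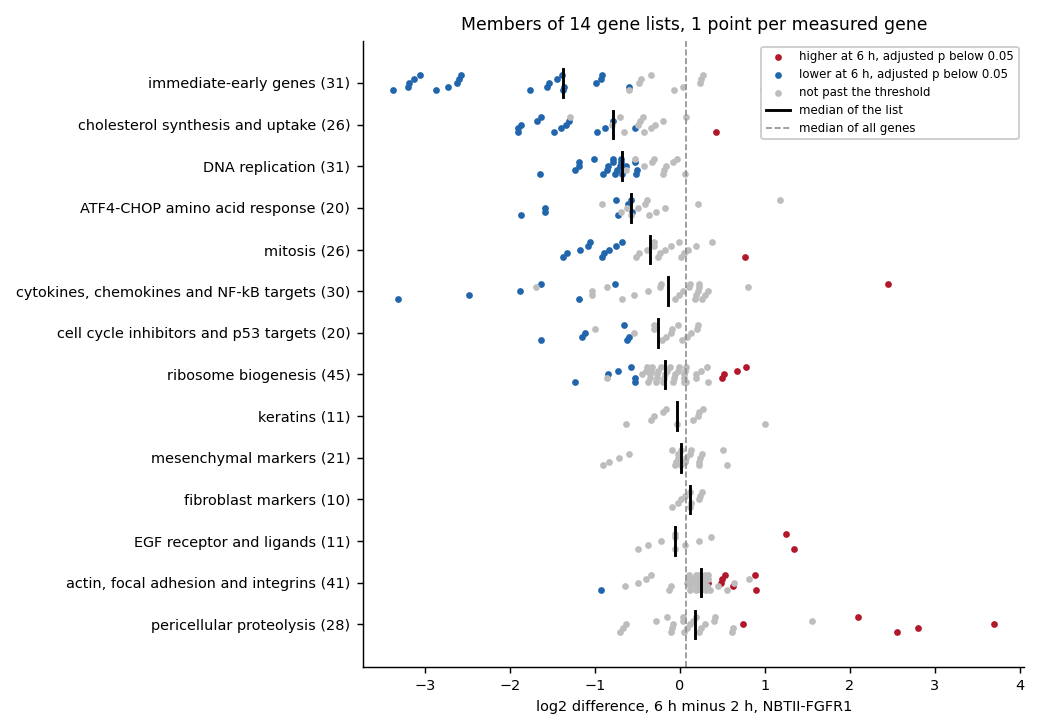
Log2 difference between 6 h and 2 h in NBTII-FGFR1 cells (x axis) for each measured member of 14 gene lists, with the number measured in brackets. Red and blue points passed an adjusted p of 0.05, the black bar is the list's median and the dashed line the median of all genes (0.08). Immediate-early, cholesterol and DNA replication genes lie mostly to the left, at medians of -1.37, -0.79 and -0.68, and 4 metalloproteinases stand apart on the right of the proteolysis list.

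Genes of DNA replication mostly fell, while 9.6% of all genes fell and 7.54% rose. Of 31 measured, 20 fell and 0 rose, with a median of -0.68, and against 2 h replicate 2 alone 13 fell and 0 rose (median -0.55). Pola1, the catalytic subunit of DNA polymerase alpha, measured 6.67 and 6.84 at 6 h, against 8.43 and 8.37 at 2 h, and fell by 1.64 ± 0.19 (adjusted p = 0.00017). Of the MCM helicase, Mcm2 was at 8.09 and 8.20 at 6 h and at 9.53 and 9.22 at 2 h, a fall of 1.23 ± 0.14 (adjusted p = 0.00018). Mcm4, Mcm6, Mcm3, Mcm7 and Mcm5 fell by 1.19, 1.01, 0.79, 0.68 and 0.63, so all 6 subunits Mcm2 to Mcm7 fell, although Mcm5 was not called against 2 h replicate 2 alone (adjusted p = 0.13) or without 6 h replicate 1. Pold1, the catalytic subunit of DNA polymerase delta, fell by 1.19 ± 0.20. The sliding clamp gene Pcna fell by 0.52 ± 0.11 (adjusted p = 0.008), and by 0.45 with an adjusted p of 0.062 from 2 h replicate 2, and its call was also lost without 6 h replicate 2. For each gene named here both 6 h arrays were lower than both 2 h arrays. The same held for genes that were not called, such as Krt5. The share of all probe sets without overlap was not counted, so this adds no support to the calls.

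E2F sites are the known element of replication genes, so 2 MCM promoters with such a match are shown, both on the minus strand of GRCr8: Mcm2 at chr4:122918095-122918244 and Mcm6 at chr13:42404353-42404502. Capitals mark overlapping matches of the motif TTTNGCGC on the 2 strands.
Mcm2: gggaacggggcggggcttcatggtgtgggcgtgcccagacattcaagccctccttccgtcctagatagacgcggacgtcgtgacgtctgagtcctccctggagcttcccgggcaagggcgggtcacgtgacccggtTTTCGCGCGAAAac
Mcm6: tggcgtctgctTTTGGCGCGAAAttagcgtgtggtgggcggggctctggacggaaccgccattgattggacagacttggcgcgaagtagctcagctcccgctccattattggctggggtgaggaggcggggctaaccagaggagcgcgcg
The motif was found on either strand of the 250 bases in 7 of 28 replication promoters, against 1.04% of all promoters and 0 of 21 proteolysis promoters.

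Mitosis genes mostly fell where they were called, while 9.6% of all genes fell and 7.54% rose. Of 26 measured 10 fell and 1 rose (median -0.35), and against 2 h replicate 2 alone 9 fell and 1 rose. Ncapd2, a condensin subunit, measured 6.13 and 5.99 at 6 h, against 7.48 and 7.29 at 2 h, and fell by 1.33 ± 0.15 (adjusted p = 0.00016). Mki67, the proliferation antigen Ki-67, fell by 1.37 ± 0.26 and Top2a, the mitotic topoisomerase, by 1.08 ± 0.21. Ccnb2, a cyclin of mitotic entry, was at 8.76 and 9.13 at 6 h and at 9.88 and 9.84 at 2 h, a fall of 0.92 ± 0.13 (adjusted p = 0.00061). The kinase gene Aurka was the exception, with 9.28 and 9.44 at 6 h against 8.70 and 8.47 at 2 h, a rise of 0.77 ± 0.15 (adjusted p = 0.0042). Of 16 G1 cyclins, kinases and regulators 4 fell and 1, Myc, rose, and the number falling was 3 against 2 h replicate 2 alone, 2 without 2 h replicate 2 and 1 without 6 h replicate 1. Ccnd1, the cyclin usually induced by mitogens, overlapped between the groups (11.05 and 11.14 at 6 h, 10.98 and 11.18 at 2 h). Id1, an inhibitor of bHLH factors, fell by 1.31 ± 0.27 (adjusted p = 0.0064). Of 20 cell cycle inhibitors and p53 targets 6 fell and 0 rose, among them the antiproliferative gene Tob1 (-1.63 ± 0.27) and Gadd45b (-1.15 ± 0.18), whereas Cdkn1a overlapped (-0.10 ± 0.32). The number falling was 3 without 6 h replicate 1, and against 2 h replicate 2 alone 4 fell and 1 rose.

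Lipid synthesis genes under SREBP control were mostly lower at 6 h, while 9.6% of all genes fell and 7.54% rose. Of 26 measured genes of cholesterol and fatty acid synthesis and uptake 13 fell and 1 rose (median -0.79), and 9 fell and 0 rose against 2 h replicate 2 alone (median -0.72). Dhcr7, which makes the last step to cholesterol, measured 6.64 and 6.78 at 6 h, against 8.74 and 8.49 at 2 h, and fell by 1.91 ± 0.16 (adjusted p = 1.7e-05). Srebf1, the lipogenic transcription factor gene, was at 7.61 and 7.50 at 6 h and at 9.68 and 9.22 at 2 h, a fall of 1.90 ± 0.23 (adjusted p = 0.00021). Cyp51, a demethylase of the sterol pathway, measured 8.64 and 8.82, against 10.61 and 10.21 at 2 h, and fell by 1.68 ± 0.21 (adjusted p = 0.00029). The 6 h arrays of these genes agreed closely and lay well below those at 2 h. Elovl6, a fatty acid elongase, fell by 1.48, Msmo1, a sterol oxidase, by 1.34, and Fasn, the fatty acid synthase, by 1.30, although Fasn was not called from 2 h replicate 2 (-0.81, adjusted p = 0.085) or without 6 h replicate 2. The exception, Fads2, a desaturase, was borderline (0.43 ± 0.14, adjusted p = 0.049) and lost its call without any 1 of the 4 compared arrays.

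**Figure D3:**
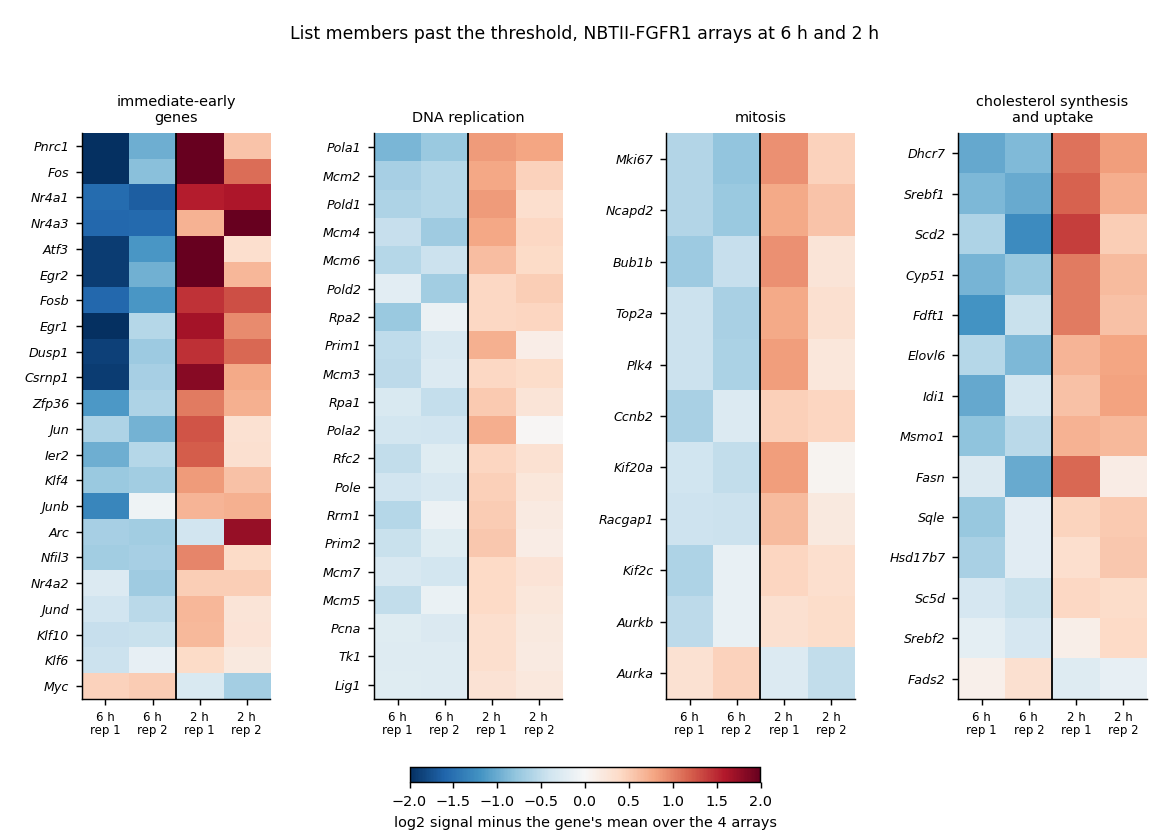
Members past the threshold in 4 lists, 1 row per gene and 1 column per NBTII-FGFR1 array, with 6 h left of the black line and 2 h right of it. Colour is the log2 signal minus the gene's mean over the 4 arrays, blue below and red above, capped at 2 in either direction. The rows run from the deepest fall at the top (Pnrc1, Pola1, Mki67 and Dhcr7) to the rising genes Myc, Aurka and Fads2 at the foot, and 2 h replicate 1 is often the most red.

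Genes of the ATF4 and CHOP amino acid response gave 8 falls and 0 rises among 20 (median -0.57), with 4 falls and 0 rises against 2 h replicate 2 alone and 5 falls without 6 h replicate 1. Over all genes 9.6% fell and 7.54% rose. Cebpb, a transcription factor that pairs with ATF4, measured 8.43 and 8.90 at 6 h, against 10.23 and 10.82 at 2 h, a fall of 1.86 ± 0.27 (adjusted p = 0.0008). Slc7a1, the cationic amino acid transporter, was at 9.37 and 8.81 at 6 h and at 10.77 and 10.59 at 2 h, a fall of 1.58 ± 0.20 (adjusted p = 0.00028), and 2 further probe sets fell. The serine synthesis genes Psat1 and Phgdh fell by 0.75 and 0.57, with Phgdh not called against 2 h replicate 2 alone. Atf4 and Ddit3, which encode ATF4 and CHOP themselves, differed by -0.36 ± 0.22 and 0.22 ± 0.39 and were not called. Of 19 glycolysis genes 4 fell and 0 rose, led by the kinase gene Pdk1 (-0.90 ± 0.17, and -0.74 against 2 h replicate 2 alone). Fewer glycolysis genes fell against 2 h replicate 2 alone or without 6 h replicate 2. Ribosome biogenesis genes gave 4 rises and 6 falls among 45 (median -0.17), shares near those of all genes. The number falling was 3 against 2 h replicate 2 alone, 2 without 6 h replicate 2 and 11 without 2 h replicate 2. The polymerase I and III subunit gene Polr1c rose by 0.67 ± 0.12, and Cad, the enzyme that begins pyrimidine synthesis, fell by 1.23 ± 0.16. Of 9 polyamine genes 1 rose and 3 fell, and 1 rose and 2 fell against 2 h replicate 2 alone. Odc1, the rate-limiting enzyme, rose by 0.63 ± 0.15 (adjusted p = 0.014), but its adjusted p was 0.092 against 2 h replicate 2 alone, and its call was lost without either 6 h array. Paox, an oxidase that breaks polyamines down, fell by 0.70 ± 0.12.

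Of 11 keratins 0 rose and 0 fell, and the few desmosome and junction genes that were called fell. Over all genes 7.54% rose and 9.6% fell. The falls among junction genes were near that share, and these lists are too small for the lack of rises to be read as a result. Krt5 measured 12.69 and 12.50 at 6 h, against 12.93 and 12.86 at 2 h, and Krt14, its partner in basal cells, 13.70 and 13.75, against 13.85 and 13.93. Both were slightly lower without passing the test (adjusted p = 0.45 and 0.38). Cdh1, which encodes E-cadherin, was at 10.10 and 9.80 at 6 h and at 9.73 and 9.59 at 2 h (0.29 ± 0.23, adjusted p = 0.4). Of 5 desmosome genes 2 fell, also against 2 h replicate 2 alone. Dsp, which encodes desmoplakin, measured 10.92 and 10.74 at 6 h, against 11.90 and 11.63 at 2 h, a fall of 0.94 ± 0.15 (adjusted p = 0.0016) and of 0.80 from 2 h replicate 2 (adjusted p = 0.018). Evpl, which encodes envoplakin, fell by 0.90 ± 0.23 (adjusted p = 0.019), but was not called without 2 h replicate 2 (-0.61) or without either 6 h array, which left 1 of 5. Of 16 adherens and tight junction genes the 2 that fell were Ocln (-1.47 ± 0.34), which encodes occludin, and Pard3 (-0.76 ± 0.22), a polarity gene, and neither was called against 2 h replicate 2 alone or without 6 h replicate 2. Without 2 h replicate 2 the number falling was 4.

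Of 21 mesenchymal markers 0 were called in either direction. Vim, which encodes vimentin, measured 7.36 and 8.30 at 6 h and 8.11 and 8.72 at 2 h, with overlap (-0.59 ± 0.63, adjusted p = 0.53). Fn1, which encodes fibronectin, was at 9.40 and 9.15, against 9.95 and 10.28 at 2 h, below both 2 h arrays but not past the threshold (-0.84 ± 0.27, adjusted p = 0.051). Snai1, a repressor of E-cadherin, measured 5.56 and 5.27 at 6 h and 5.13 and 5.24 at 2 h (0.23 ± 0.16, adjusted p = 0.33). More actin and focal adhesion genes rose than fell, while 7.54% of all genes rose, 9.6% fell and their median was 0.08. Of 41 measured 7 rose and 1 fell (median 0.25), and 3 rose and 0 fell against 2 h replicate 2 alone. The number rising was 12 without 2 h replicate 2 and 2 without 6 h replicate 2. Actn1, the actin crosslinker alpha-actinin 1, measured 11.96 and 11.83 at 6 h, against 10.61 and 11.39 at 2 h, and rose by 0.89 ± 0.18 (adjusted p = 0.005). Capn2, a calpain protease that cleaves adhesion proteins, rose by 0.53 ± 0.12, and Itgb5, which encodes integrin beta 5, fell by 0.92 ± 0.20, both calls lost without 6 h replicate 2 and that of Itgb5 also against 2 h replicate 2 alone. Lama3, which encodes a laminin chain of the epithelial basement membrane, rose by 0.91 ± 0.24 (adjusted p = 0.019), and by 0.53 with an adjusted p of 0.18 from 2 h replicate 2, and its call was also lost without 6 h replicate 1. Of 23 ER chaperone and degradation genes 1 rose and 1 fell, Derl2 (0.62 ± 0.15) and the co-chaperone gene Dnajb9 (-2.11 ± 0.42), and neither was called against 2 h replicate 2 alone (adjusted p = 0.11 and 0.054). Of 22 interferon response genes 0 rose and 1 fell, Tap1 (-0.63 ± 0.15), a peptide transporter gene. Against 2 h replicate 2 alone Tap1 was not called (adjusted p = 0.079) and Oas1a, an antiviral synthetase gene, was called higher (0.59, adjusted p = 0.049). Of 5 genes of urothelial differentiation 0 were called.

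Among 8 defining leukocyte markers 3 lay below the lower quartile and 1, Cd14, above the median on all 4 arrays, at 8.05 and 7.73 at 6 h and 7.89 and 7.55 at 2 h. Of 18 leukocyte genes 1 rose (Cd3d, 0.45 ± 0.14) and 17 had a positive difference, of 9 endothelial genes 2 rose and 7 had a positive difference, and of 10 fibroblast genes 0 were called and 8 had a positive difference. Over all genes 7.54% rose, and the median difference was also positive (0.08). Cd3d was at 4.55 and 4.70 at 6 h, against 4.40 and 3.95 at 2 h, close to the lower quartile, and lost its call without any 1 array of the step in either line other than NBTII-FGFR1 2 h replicate 1. The endothelial genes that rose were Tie1, near or below the lower quartile at both times, and called neither against 2 h replicate 2 alone (adjusted p = 0.26) nor without either 6 h array, and Flt1, a VEGF receptor gene, with 7.48 and 8.36 at 6 h against 5.94 and 6.84 at 2 h (1.53 ± 0.35, adjusted p = 0.0095), which was not called against 2 h replicate 2 alone (adjusted p = 0.096) or without 6 h replicate 2. The endothelial defining genes Vwf and Kdr lay below the lower quartile on all 4 arrays. The part of background level in these small positive differences was not tested.

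Fewer probe sets were called for the step from 2 h to 6 h in the parental line. In NBTII cells 437 probe sets (2.75%) differed between 6 h and 2 h, 292 higher (1.84%) and 145 lower (0.914%). The NBTII count was 132 without NBTII 2 h replicate 1, 103 without NBTII 6 h replicate 1 and 95 without NBTII 6 h replicate 2. It was 677 when either NBTII-FGFR1 array at 2 h, which lends its spread, was left out. Both lines called 164 probe sets higher, out of 1094 in NBTII-FGFR1 and 292 in NBTII, and 131 lower, out of 1468 and 145, while 1 was lower in NBTII-FGFR1 and higher in NBTII. Of the probe sets higher in NBTII-FGFR1, 78.5% had a positive difference in NBTII, against 47% of all probe sets, and of those lower 78.1% had a negative one, against 53% of all. In NBTII 3.22% of genes were called, 2.22% rose and 0.999% fell. Against this background 9 of 31 immediate-early genes, 10 of 31 replication genes and 7 of 26 cholesterol genes fell in NBTII, and 0 of 28 proteolysis genes were called. Not every list went the same way in the 2 lines. Of 26 mitosis genes 0 fell and 2 rose in NBTII, with a median of 0.07, against -0.35 in NBTII-FGFR1. Of 45 ribosome biogenesis genes 0 fell and 4 rose in NBTII, with a median of 0.12, against -0.17 in NBTII-FGFR1.

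The difference between the steps was tested directly and 2 probe sets passed (0.0126%), Lpin1 and Colgalt1, both with a deeper fall in NBTII-FGFR1. At an unadjusted p below 0.05 there were 2612 of 15866, 1187 more positive and 1425 more negative in NBTII-FGFR1. This is above the share of 0.05 that would pass with no difference. The 2 adjusted calls therefore do not show that all other probe sets moved alike. The count rose to 1316 without NBTII-FGFR1 2 h replicate 2, to 710 without NBTII 2 h replicate 2 and to 63 without NBTII-FGFR1 6 h replicate 1, and was 0 without NBTII-FGFR1 2 h replicate 1, without NBTII 2 h replicate 1 or without either NBTII 6 h array. Rras2 rose in both lines, by 1.85 ± 0.12 in NBTII-FGFR1 and 1.88 ± 0.12 in NBTII, a difference of -0.03 ± 0.17. Tcim fell by 3.07 ± 0.33 in NBTII-FGFR1 and 2.79 ± 0.33 in NBTII. Mmp12 differed more, 2.81 ± 0.32 in NBTII-FGFR1 and 0.32 ± 0.32 in NBTII, yet the difference of 2.49 ± 0.45 did not pass (adjusted p = 0.068). Has2 gave 2.33 ± 0.38 and -0.27 ± 0.38 (difference 2.60 ± 0.54, adjusted p = 0.096), with all NBTII values between 4.44 and 4.81. Mmp9 gave 2.44 ± 0.34 and 0.09 ± 0.34 (adjusted p of the difference 0.092). None of the metalloproteinase steps was therefore shown to differ between the lines.

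**Figure D4:**
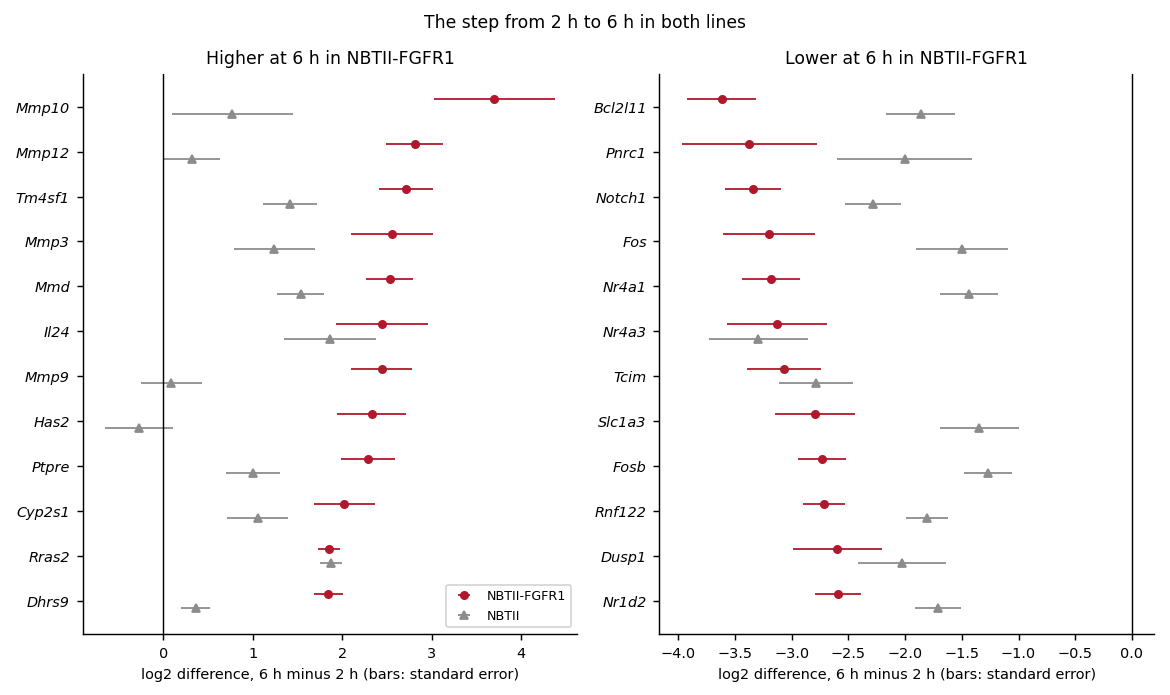
Log2 difference between 6 h and 2 h (x axis) with its standard error for the genes of the naming rule, NBTII-FGFR1 as red circles above NBTII as grey triangles. Rras2, Tcim and Nr4a3 lie close together in the 2 lines, while Mmp12, Mmp9, Has2 and Dhrs9 lie near 0 in NBTII. The adjusted p of the difference is above 0.05 for every gene shown.

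The genes differed in what came before and after the step, given here as values without a test. In NBTII-FGFR1 cells Mmp10 was at 4.27 at 0.5 h, 5.40 and 7.57 at 2 h, 9.65 and 10.72 at 6 h, 9.08 and 11.44 at 24 h and 12.48 and 12.12 at 48 h, so it kept a high level. The same Mmp9 probe set was at 3.61 at 0.5 h, 5.46 and 5.19 at 2 h, 7.93 and 7.61 at 6 h, 4.48 and 4.24 at 24 h and 5.40 and 4.26 at 48 h. Its peak was at 6 h. Has2 had a peak of the same kind, with 6.38 and 8.18 at 6 h and values of 4.57 to 5.02 at 24 and 48 h. Dhcr7 was at 8.90 at 0.5 h, 8.74 and 8.49 at 2 h, 6.64 and 6.78 at 6 h, 8.10 and 8.55 at 24 h and 7.98 and 8.16 at 48 h, a trough at 6 h. Mcm2 was at 9.47 at 0.5 h, 9.53 and 9.22 at 2 h, 8.09 and 8.20 at 6 h, 9.25 and 9.27 at 24 h and 8.05 and 8.41 at 48 h, low at both 6 h and 48 h. Nr4a1 stayed between 5.47 and 6.45 after 6 h. Krt5, which did not pass at 6 h, was at 11.37 and 10.42 at 24 h and 8.97 and 9.21 at 48 h.

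**Figure D5:**
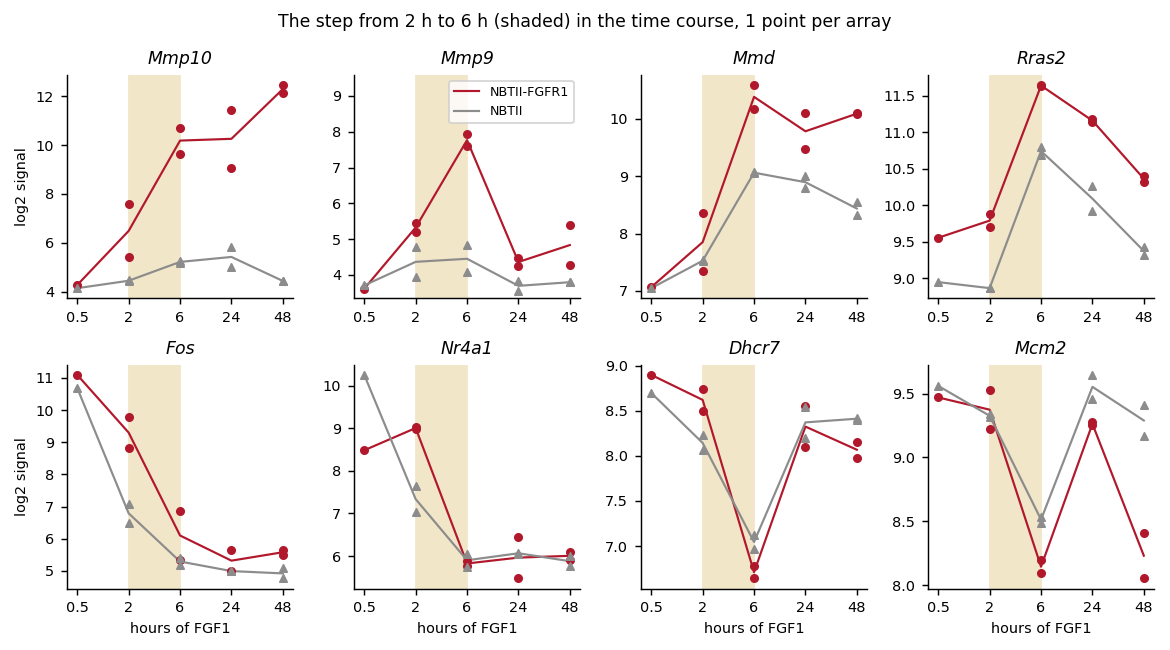
Log2 signal (y axis) at 0.5, 2, 6, 24 and 48 h of FGF1 (x axis, evenly spaced steps) for 8 genes, with 1 point per array and lines through the means, NBTII-FGFR1 in red circles and NBTII in grey triangles. The shaded band is the step from 2 h to 6 h. Mmp9 peaks at 6 h in NBTII-FGFR1 cells (7.93 and 7.61), and Mmp10 climbs on to 12.48 and 12.12 at 48 h. Dhcr7 has a trough at 6 h in both lines. Mcm2 is low at 6 h in both lines and again at 48 h in NBTII-FGFR1 cells.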

How the data were processed

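Total RNA of NBTII-FGFR1 and NBTII cells was measured on 21 arrays, 1 per sample. Values were deposited by the authors as log2 signals. RMA produced them, per the submitters' processing notes, in a version not given in the sources used here. Raw image files were not analysed here. Of 15923 probe sets 57 controls were left out and 15866 tested, dim ones included. By the platform annotation 12783 carry 1 symbol, 312 several and 2771 none or no entry, giving 10411 genes, each read from its brightest probe set (highest mean). The number of arrays limits the precision.

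The 18 arrays of 0.5 to 48 h, 10 groups by title, entered a limma fit (limma 3.58.1, R 4.3.3, 8 residual and 5.54 prior degrees of freedom), without a replicate block. P-values were adjusted by Benjamini-Hochberg over all 15866 probe sets, with a threshold of 0.05. The 0.5 h groups, of 1 array each, lend no spread. The comparison with 2 h replicate 2 alone assumes that this array varies like the other groups. The pipeline was tested on simulated data.

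Members and the 27 gene lists were chosen with earlier results of these data known. Lists are described by counts and medians, without a set test. Named were 28 fixed genes, of which 27 were measured, the genes, 12 rising and 12 falling, that lay farthest from the nearer 2 h array, the 4 and 4 genes on which the 2 h arrays disagreed most, up to 4 genes of smallest p per list, and the genes called for a difference between the lines. The 12 rising and 12 falling genes were taken only from called probe sets whose 6 h and 2 h arrays did not overlap. Other list members named here were chosen after their values were seen. Promoters are RefSeq's for GRCr8, and 250 bases upstream were searched on both strands. Other software was matplotlib 3.10.9, numpy 2.4.6, pandas 2.3.3 and Python 3.11.15.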

Additional observations from a re-analysis of the deposited data

Results flagged for a closer look

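The difference between the NBTII-FGFR1 and NBTII steps passed the threshold for 2 probe sets. Lpin1, which encodes the phosphatidate phosphatase lipin 1, measured 4.25 and 4.12 at 6 h and 6.58 and 6.18 at 2 h in NBTII-FGFR1 cells, against 4.40 and 4.11 at 6 h and 4.71 and 4.8 at 2 h in NBTII cells. The NBTII-FGFR1 step was lower than the NBTII step by -1.69 ± 0.24 (log2, limma, adjusted p = 0.048). All 4 arrays at 6 h, of both lines, were below their lower quartile, so the fall in each line is a lower bound and the difference between the steps is bounded in neither direction. Colgalt1, a collagen galactosyltransferase gene, measured 6.82 and 6.78 at 6 h and 7.71 and 7.67 at 2 h in NBTII-FGFR1 cells, against 7.10 and 7.17 at 6 h and 7.03 and 6.96 at 2 h in NBTII cells, a difference between the steps of -1.03 ± 0.14 (adjusted p = 0.048). Of 2 other Colgalt1 probe sets 1 fell in NBTII-FGFR1 cells. The within-line fall in NBTII-FGFR1 cells was called for both genes against 2 h replicate 2 alone as well, at -1.99 for Lpin1 and -0.87 for Colgalt1. Without NBTII-FGFR1 2 h replicate 1 no probe set (0) passed for the difference between the lines.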

How the results depend on the processing

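The NBTII-FGFR1 count of 2562 was 265 with only the 4 compared arrays in the fit and 1005 with array weights, and lay between 1273 and 3454 with 1 array left out. Against 2 h replicate 2 alone it was 1280, and 13 with only the compared arrays. The NBTII count of 437 was 157 with only its own arrays, and between 95 and 677 with 1 array left out. The 2 probe sets that differed between the lines were 21 with all 21 arrays, 1 with the trend and robust variance model and 0 with only the compared arrays, without dim probe sets, after repeated quantile normalization, with equal medians, with array weights or with the replicate block, and between 0 and 1316 with 1 array left out. With NBTII-FGFR1 arrays of 2 to 48 h only, the NBTII-FGFR1 count was 1750, with 637 higher in place of 1094, and against 2 h replicate 2 alone 948, with 334 higher in place of 554.

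No label says that a replicate number marks a shared culture or day, and 2 numbers a group are too few to settle pairing from the data, so the replicate block is given only here. Deviations of same-numbered arrays correlated at 0.333 between NBTII-FGFR1 6 h and 2 h, at 0.115 to 0.232 between NBTII groups, at -0.106 to 0.348 between NBTII-FGFR1 groups and at -0.131 to 0.348 over all 28 pairs of groups. With the replicate block 2830 probe sets were called in NBTII-FGFR1, 543 in NBTII, 1516 against 2 h replicate 2 alone and 0 for the difference between the lines.

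Of the 150 named probe sets 0 changed sign while called in either setting, but some that were not called did, such as Krt8 (0.27, and -0.07 without 2 h replicate 1). Calls were lost by 59 with only the compared arrays, 28 without 6 h replicate 2, 26 with array weights, 25 without 2 h replicate 1 and 16 without 6 h replicate 1. With all probe sets of a gene averaged, list medians were -0.28 for FGF receptors (from -0.62), -0.97 for cholesterol genes (from -0.79) and 0.06 for polyamine genes (from -0.08). With 2 arrays a group, small differences are not resolved, and levels below the lower quartile are not shown above background.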

Other observations

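Some genes were chosen because the 2 h arrays disagreed on them, and why the arrays disagree was not tested. Cyp27b1, the enzyme that activates vitamin D, measured 7.17 and 8.41 at 6 h, against 5.24 and 6.66 at 2 h, a rise of 1.84 ± 0.40 (limma, adjusted p = 0.008) that was not called against 2 h replicate 2 alone (1.13, adjusted p = 0.08) or without 6 h replicate 2. It was at 4.99 to 5.2 at 24 and 48 h. Upb1, an enzyme of pyrimidine breakdown, was at 6.85 and 7.38 at 6 h and at 4.68 and 6.05 at 2 h, and its rise of 1.75 ± 0.52 (adjusted p = 0.035) was lost without 2 h replicate 1, 6 h replicate 1 or 6 h replicate 2. Rab27b, a GTPase of vesicle secretion, measured 7.96 and 8.63 at 6 h, against 5.76 and 6.87 at 2 h, and its rise of 1.97 ± 0.35 (adjusted p = 0.0024) was also called against 2 h replicate 2 alone (1.42, adjusted p = 0.026). Sh3bgrl3 was at 9.62 and 9.83 at 6 h and at 8.11 and 9.30 at 2 h, a rise of 1.02 ± 0.26 (adjusted p = 0.017) that was 0.43 and not called against 2 h replicate 2 alone.

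Icam1 measured 7.43 and 6.43 at 6 h and 10.44 and 8.39 at 2 h in NBTII-FGFR1 cells, against 7.16 and 6.92 at 6 h and 9.25 and 8.40 at 2 h in NBTII cells. In both lines the replicate 1 array at 2 h was the higher one. The fall in NBTII-FGFR1 cells (2.48 ± 0.48, adjusted p = 0.0043) was lost without 6 h replicate 2 (adjusted p = 0.053). Cxcl1 was likewise higher on the replicate 1 array at 2 h in both lines, at 11.27 and 7.22 in NBTII-FGFR1 cells and 9.40 and 7.63 in NBTII cells, and stood at 11.34 and 10.96 on their 0.5 h arrays. Other genes did not share this pattern. Atf3 was at 9.74 and 7.34 at 2 h in NBTII-FGFR1 cells but at 6.30 and 6.61 in NBTII cells, and Pnrc1 at 9.82 and 7.60 but at 6.42 and 6.60. Over all probe sets the replicate differences at 2 h correlated at -0.086 between the lines.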
